A study of Gallus gallus with 20 samples.

Results

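The 9 genes described here encode enzymes of the tricarboxylic acid (TCA) cycle: citrate synthase (CS), the alpha and beta subunits of NAD-dependent isocitrate dehydrogenase (IDH3A and IDH3B), the E1 component of the 2-oxoglutarate dehydrogenase complex (OGDH), the alpha subunit of succinyl-CoA ligase (SUCLG1) and its ATP-forming beta subunit (SUCLA2), fumarate hydratase (FH), and the mitochondrial and cytosolic malate dehydrogenases (MDH2 and MDH1). They were chosen by gene name, and all 9 names were found among the 27170 genes of the deposited table. RNA had been sequenced from breast muscle (pectoralis major) and liver of slow-growing chickens, labelled KRC and of mixed sex, taken at slaughter at 91 days of age. The study asked how an organic raising system changes the transcriptome of both tissues. Organic birds received feed made from organic raw materials and had an outdoor Ruzi grass pasture from day 21, while conventional birds received commercial feed and stayed indoors. Feed and pasture access therefore differ together between the systems and cannot be told apart. There were 4 groups of 5 libraries: organic breast muscle, conventional breast muscle, organic liver and conventional liver. Chicks had been allotted to the systems at random and kept in 5 indoor pens per system within the same poultry house. The labels give neither the pen nor the sex behind a library, and do not say whether a muscle and a liver library came from the same bird.

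In the cycle, acetyl-CoA is joined to oxaloacetate by citrate synthase and its carbon is released as carbon dioxide in the steps run by isocitrate dehydrogenase and 2-oxoglutarate dehydrogenase, while the electrons pass to NADH and, at succinate dehydrogenase, to ubiquinone. Succinyl-CoA ligase forms a nucleoside triphosphate directly, and its beta subunit sets which one: the enzyme with SUCLA2 forms ATP and the enzyme with SUCLG2 forms GTP. In mammals SUCLA2 is known as the main beta subunit of muscle and brain, and SUCLG2 as that of liver and kidney. Fumarase and malate dehydrogenase close the cycle. MDH1 works in the cytosol, where it passes reducing equivalents to and from mitochondria in the malate-aspartate shuttle and acts beside gluconeogenesis and citrate export. Skeletal muscle uses the cycle mostly to burn fuel, whereas liver also draws intermediates off for glucose, fat, amino acid and haem synthesis. The pectoralis major of chickens consists mostly of fast glycolytic fibres.

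Levels are given in FPKM, here fragments scaled to annotated gene length and to a size factor per library that differs from its total count. FPKM set genes of different length on one scale, and the tests were run on the deposited read counts. Total counts ranged from 12699692 to 13417005 per breast muscle library and from 14065269 to 20488526 per liver library, and each of the 9 genes had at least 115 reads in every library. The genes passed the low-count filter in every comparison. Together they took 0.205% to 0.256% of all reads in breast muscle libraries and 0.0937% to 0.13% in liver libraries, shares that give longer transcripts more weight. Summed markers checked the tissues. The 4 matched skeletal fibre markers of 10 listed reached 90036 to 117911 CPM (counts scaled to library size) in breast muscle and 0.853 to 6.47 CPM in liver. The 9 matched hepatocyte markers of 10 listed reached 292 to 1578 CPM in breast muscle and 152314 to 208259 CPM in liver. The labels do not say that each library is a separate bird, so p-values measure only the spread between these libraries, which may be technical. Counts of the libraries of one group differed by more than sampling noise in every pair, so none was counted as a repeat of another. Organic liver replicate 1 was the deepest library, and organic liver replicate 4 had the largest share of reads on mitochondrial genes, 14.2% against 5.79% to 9.25% in the other liver libraries.

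Breast muscle held more transcript than liver for 7 of the 9 genes, and the difference ran from 1.75-fold for MDH2 to 16.7-fold for SUCLA2. MDH1, the cytosolic enzyme, was the 1 gene called lower in breast muscle, and FH was not called in either direction. These calls used edgeR's quasi-likelihood test with Benjamini-Hochberg adjustment over 14447 genes and a threshold of 0.05, with both raising systems in one fit. Over all these genes 81.5% were called, 39.1% as higher in breast muscle and 42.5% as lower, and the median log2 fold change was -0.07, whereas the median of the 9 genes was 1.75. A difference of at least 2-fold upward was called for 6 of the 9 genes and for 25.3% of all genes, and one of at least 2-fold downward for 0 of the 9 genes and 29.6% of all genes. For 7 of the 9 genes the 10 muscle and 10 liver libraries did not overlap, as was the case for 49.0% of all genes. In whole tissue, fewer cells of a type and less RNA per cell cannot be told apart.

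**Figure D1:**
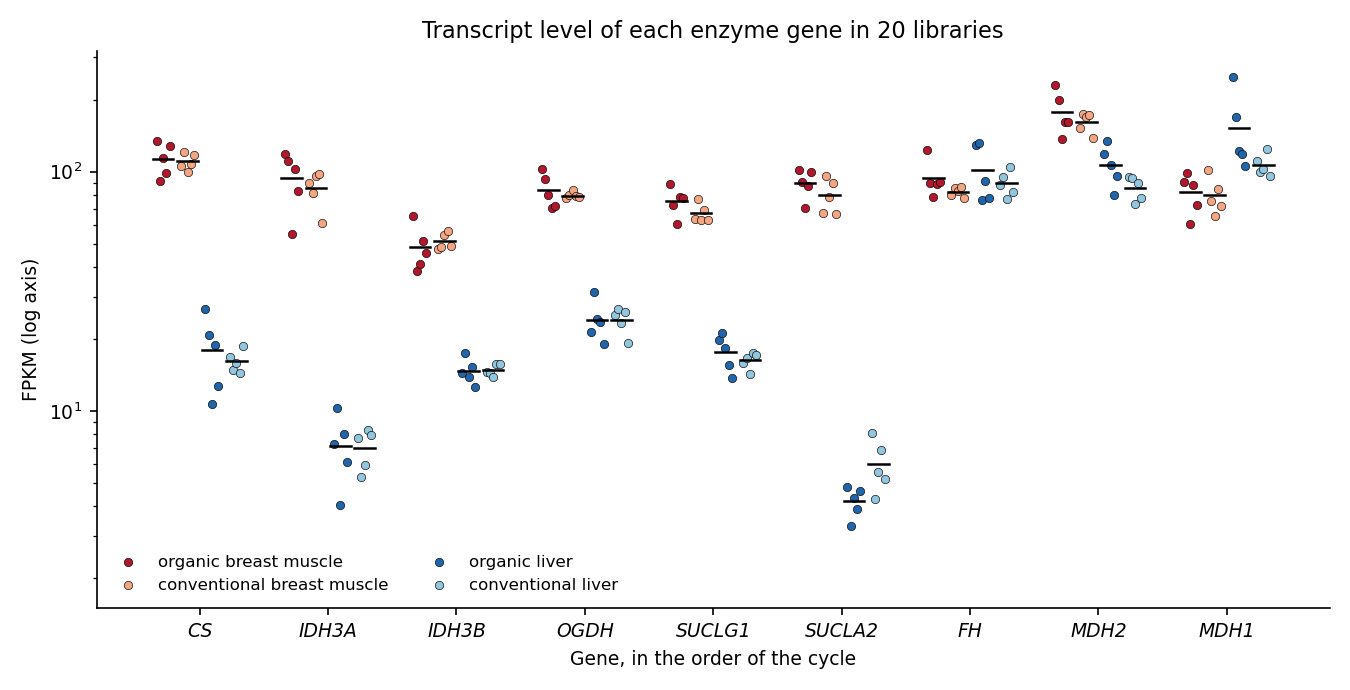
Level of each of the 9 enzyme genes in FPKM on a log axis, in the order of the cycle, with 1 point per library and a bar at the mean of each group of 5. The red and orange points of breast muscle lie above the blue points of liver for 7 genes, mix with them for FH, and lie mostly below them for MDH1.

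Citrate synthase opens the cycle, and its enzyme activity, which was not measured here, is a common marker of mitochondrial content. CS (ENSGALG00000030466, chromosome 33, 6957980 to 6962486, plus strand; all positions are on GRCg6a) stood at 134, 91.1, 114, 98.2 and 128 FPKM in organic breast muscle and 106, 121, 99.3, 108 and 117 FPKM in conventional breast muscle. In liver CS had 26.7, 20.7, 10.7, 18.8 and 12.7 FPKM in organic livers and 16.8, 14.8, 15.8, 14.4 and 18.6 FPKM in conventional livers. Every muscle library lay above every liver library, and the 5 organic livers were spread more widely than the 5 conventional ones. CS averaged 112 ± 13.8 FPKM in breast muscle and 17.0 ± 4.52 FPKM in liver (SD, n = 10 each), a log2 fold change of 2.70 ± 0.14 (SE; edgeR adjusted p = 9e-14).

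The isocitrate and 2-oxoglutarate dehydrogenases run the oxidative decarboxylations. IDH3A, the catalytic subunit (ENSGALG00000037401, chromosome 10, 4228395 to 4240381, minus strand), had 119, 111, 54.8, 102 and 83.3 FPKM in organic breast muscle and 89.2, 81.6, 96.1, 98.0 and 60.9 FPKM in conventional breast muscle. Liver levels of IDH3A were 7.27, 10.2, 4.04, 8.03 and 6.12 FPKM in organic livers and 7.72, 5.27, 5.92, 8.29 and 7.90 FPKM in conventional livers. The lowest muscle library, organic replicate 3, was still above the highest liver library, organic replicate 2. The log2 fold change of IDH3A in muscle over liver was 3.64 ± 0.17 (edgeR adjusted p = 2.28e-14), a 12.5-fold difference. IDH3B, a regulatory partner in the same enzyme (ENSGALG00000033888, chromosome 4, 91045474 to 91054683, minus strand), had 65.4, 38.3, 41.0, 51.1 and 45.8 FPKM in organic breast muscle and 47.5, 48.3, 54.3, 56.6 and 48.8 FPKM in conventional breast muscle. In liver, IDH3B had 14.4, 17.5, 13.8, 15.2 and 12.6 FPKM in organic livers and 14.5, 14.4, 13.9, 15.7 and 15.8 FPKM in conventional livers. The tissues were apart here too, but by less, at 1.73 ± 0.09 or 3.33-fold (edgeR adjusted p = 2.07e-13). IDH3B overlaps NOP56 on the opposite strand (16664 reads over all libraries) and VPS16 on its own strand (19900 reads), and the sources used here do not give whether counting used strand, so its counts are uncertain. The gamma subunit IDH3G was not matched by name in the table.

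OGDH (ENSGALG00000014155, chromosome 22, 5177339 to 5208257, plus strand) had 102, 93.3, 80.2, 70.7 and 72.1 FPKM in organic breast muscle and 77.2, 79.7, 83.5, 78.7 and 78.0 FPKM in conventional breast muscle. Liver libraries held 21.3, 31.4, 24.3, 23.4 and 19.05 FPKM in organic livers and 25.2, 26.6, 23.3, 25.9 and 19.2 FPKM in conventional livers. OGDH was 3.37-fold higher in breast muscle, with no overlap of libraries and a log2 fold change of 1.75 ± 0.11 (edgeR adjusted p = 1.3e-12). The conventional muscle libraries of OGDH were the tightest of the 9 genes in the 4 groups, with a coefficient of variation of 3.09%. The partners of OGDH in its complex were measured too. DLD, the E3 component shared with other complexes, was higher in breast muscle at 0.34 ± 0.13 (edgeR adjusted p = 0.0165). DLST, the E2 component, was lower at -0.23 ± 0.09 (edgeR adjusted p = 0.0229). For both genes the libraries of the 2 tissues overlapped. Without organic liver replicate 2 DLST was at -0.17 and its call was lost (edgeR adjusted p = 0.0544).

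Succinyl-CoA ligase showed the widest contrast. SUCLA2 (ENSGALG00000016993, chromosome 1, 169965109 to 169985664, minus strand) had 101, 90.5, 70.1, 87.2 and 99.2 FPKM in organic breast muscle and 67.1, 95.8, 78.4, 90.0 and 66.6 FPKM in conventional breast muscle. Liver levels of SUCLA2 were 4.80, 3.30, 4.34, 3.90 and 4.62 FPKM in organic livers and 8.10, 4.28, 5.54, 6.85 and 5.19 FPKM in conventional livers. SUCLA2 averaged 84.6 ± 13.2 FPKM in breast muscle and 5.09 ± 1.43 FPKM in liver (SD, n = 10 each), the lowest of the 9 genes in liver, and its log2 fold change of 4.06 ± 0.13 was the largest of the 9 (edgeR adjusted p = 2.41e-17). SUCLG1, the alpha subunit common to both forms of the enzyme (ENSGALG00000015961, chromosome 4, 86200311 to 86215802, plus strand), had 88.7, 72.7, 60.3, 78.3 and 77.5 FPKM in organic breast muscle and 63.5, 76.7, 62.8, 68.9 and 62.5 FPKM in conventional breast muscle. In liver, SUCLG1 had 19.8, 21.2, 18.3, 15.5 and 13.7 FPKM in organic livers and 15.8, 16.6, 14.2, 17.5 and 17.1 FPKM in conventional livers. SUCLG1 was higher in breast muscle by 4.15-fold, at 2.05 ± 0.10 (edgeR adjusted p = 1.39e-14). SUCLG2, the GTP-forming beta subunit, went the other way, with 3.71 ± 0.524 FPKM in breast muscle and 28.5 ± 5.85 FPKM in liver (SD, n = 10 each) and a log2 fold change of -2.95 ± 0.12.

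Fumarase was close to level between the tissues. FH (ENSGALG00000013165, chromosome 2, 85647805 to 85662193, minus strand) had 124, 89.9, 78.5, 88.8 and 90.2 FPKM in organic breast muscle and 80.0, 85.7, 82.7, 86.6 and 77.5 FPKM in conventional breast muscle. Liver levels of FH were 129.7, 131, 76.0, 91.3 and 77.8 FPKM in organic livers and 87.5, 95.3, 76.8, 105 and 82.3 FPKM in conventional livers. The libraries of both tissues overlapped, and the log2 fold change was -0.12 ± 0.11 with a 95% interval of -0.36 to 0.11 (edgeR adjusted p = 0.311). With libraries scaled by total counts the value was -0.25 (edgeR adjusted p = 0.018) and called lower, under a scaling that moved the median of all genes to -0.20. SDHA, which encodes the succinate dehydrogenase subunit that makes fumarate, lies 701 bases from FH on the same strand and was higher in breast muscle at 0.85 ± 0.10.

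Both malate dehydrogenases were abundant in both tissues and differed in opposite directions. MDH2, the mitochondrial enzyme (ENSGALG00000001949, chromosome 19, 4434155 to 4442703, minus strand), had 229, 200.1, 136, 162 and 161 FPKM in organic breast muscle and 152, 174, 169, 172 and 139 FPKM in conventional breast muscle. Liver levels of MDH2 were 118, 134, 107, 79.7 and 96.1 FPKM in organic livers and 94.8, 94.2, 73.4, 89.3 and 77.2 FPKM in conventional livers. Every muscle library exceeded every liver library, at 0.81 ± 0.11 (edgeR adjusted p = 8.2e-07). MDH1, the cytosolic enzyme (ENSGALG00000008858, chromosome 3, 10131713 to 10143027, plus strand), had 90.6, 98.4, 60.6, 87.6 and 72.6 FPKM in organic breast muscle and 101, 75.6, 65.0, 84.5 and 71.9 FPKM in conventional breast muscle. In liver, MDH1 had 249, 169.5, 122, 119 and 105 FPKM in organic livers and 110.4, 99.4, 102, 125 and 96.3 FPKM in conventional livers. All 10 muscle libraries lay below the liver mean, and 2 of them, organic replicate 2 and conventional replicate 1, lay within the liver range. The log2 fold change of MDH1 was -0.67 ± 0.14 (edgeR adjusted p = 0.000192), and it stood between -0.73 and -0.55 with 1 library left out. MDH1 overlaps WDPCP on the opposite strand, which held 291 reads over all libraries.

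**Figure D2:**
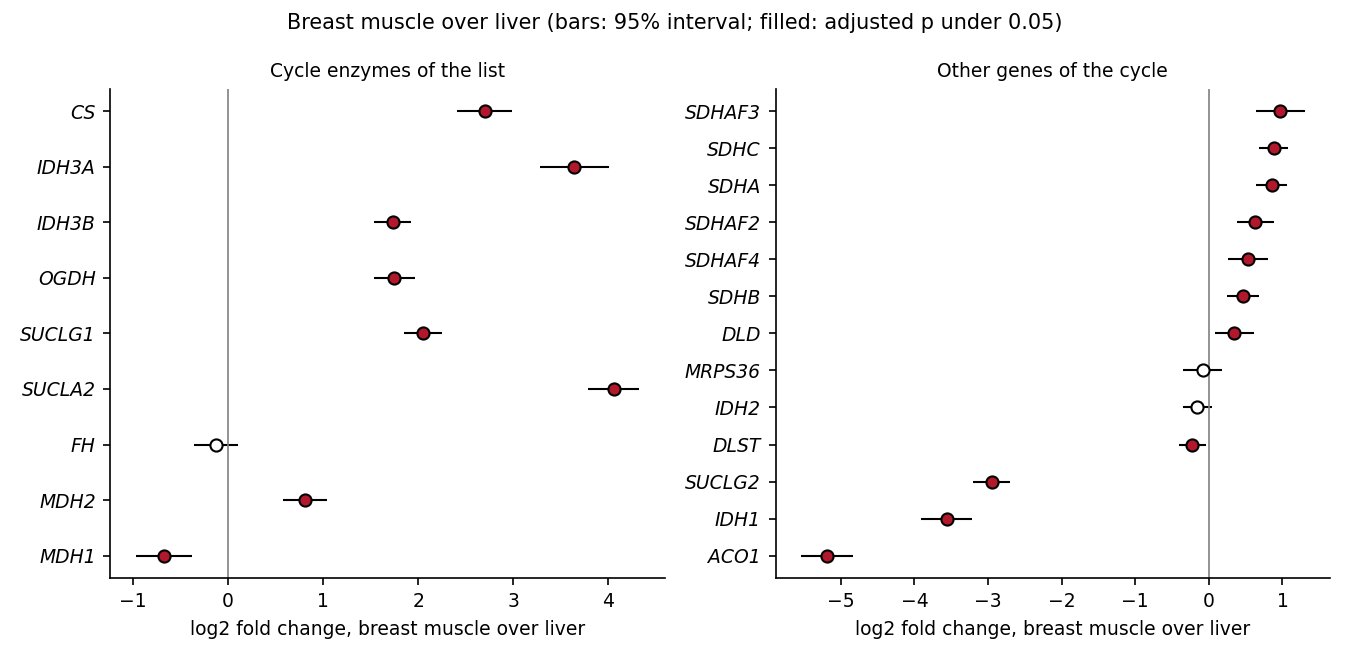
Log2 fold change of breast muscle over liver with its 95% interval for the 9 enzyme genes in the order of the cycle (left) and for 13 other genes of the cycle ranked by size (right); filled points have an edgeR adjusted p under 0.05. SUCLA2 lies farthest right at 4.06 in the left panel, and ACO1, IDH1 and SUCLG2 lie farthest left in the right panel.

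The order of the 9 genes by FPKM differed between the tissues. In breast muscle MDH2 ranked first, CS second and IDH3B last by group mean in both systems. MDH2 lay above CS, and CS above the gene next by mean, in 5 of 5 libraries per group. In organic replicates 2 and 4, however, CS lay below IDH3A, and in replicate 2 also below MDH1 and OGDH. The 6 genes FH, IDH3A, SUCLA2, OGDH, MDH1 and SUCLG1 ranked between CS and IDH3B with means from 66.9 to 94.2 FPKM. Most neighbours in that stretch changed places between libraries. In liver MDH1 ranked first, above the next gene in 5 of 5 libraries of each system, MDH2 and FH followed with means from 85.8 to 107 FPKM, and their order was not the same in the libraries of either system. OGDH, CS, SUCLG1 and IDH3B formed a lower step with means from 14.7 to 24.0 FPKM, and IDH3A and SUCLA2 ranked last. The highest mean of a group exceeded the lowest by 3.68-fold in organic breast muscle and 3.16-fold in conventional breast muscle, against 36.4-fold in organic liver and 17.8-fold in conventional liver.

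Ratios within a library do not depend on how libraries were scaled to each other. The ratio of SUCLA2 to SUCLG2 FPKM was 24.4, 21.7, 22.8, 23.1 and 31.1 in organic breast muscle and 18.2, 25.7, 16.7, 25.1 and 21.5 in conventional breast muscle. In organic livers it was 0.131, 0.0831, 0.169, 0.156 and 0.207, and in conventional livers 0.295, 0.145, 0.246, 0.224 and 0.207. The 2 beta subunits thus stood in reverse order in the 2 tissues in all 20 libraries. The difference in the mean log2 ratio was 7.01, or 129-fold (two-sided permutation test with 100000 resamples, p = 6e-05, adjusted p = 0.000225 over 15 tests of ratios). It restates the opposite fold changes of SUCLA2 and SUCLG2 given above, and the pairs were chosen with earlier results known. Its p is therefore no separate support for them. SUCLA2 made up 96.0% ± 0.5 (SD, n = 5) of the summed FPKM of both beta subunits in organic breast muscle and 95.4% ± 0.845 in conventional breast muscle, against 12.9% ± 3.54 in organic liver and 18.1% ± 3.72 in conventional liver. Summed over both, the beta subunits stood at 1.24 ± 0.0709 times SUCLG1 in organic breast muscle and 1.24 ± 0.118 times in conventional breast muscle, and at 1.92 ± 0.177 times in organic liver and 2.03 ± 0.178 times in conventional liver (SD, n = 5 each). This sum was added after the values were seen and has no test. Like every level set against another gene here, it depends on the annotated gene lengths, which were not checked.

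The other ratios also differed between the tissues. IDH3A to IDH3B was 1.82 ± 0.443 in breast muscle and 0.475 ± 0.0882 in liver (SD, n = 10 each), and the catalytic subunit led its partner in 10 of 10 muscle libraries and in no liver library. Because IDH3B overlaps NOP56 and VPS16, its counts are uncertain, and so is this ratio. MDH1 to MDH2 was 0.482 ± 0.0822 in breast muscle and 1.33 ± 0.305 in liver, so that the cytosolic form led in all 10 livers and the mitochondrial form in all 10 muscles. SUCLA2 to SUCLG1 was 1.19 ± 0.0905 in breast muscle and 0.308 ± 0.102 in liver. For these 3 ratios the tissues did not overlap, and the permutation test gave p = 6e-05 and adjusted p = 0.000225 for each. The same resamples were used for every ratio. Each ratio restates the fold changes of its 2 genes given above, so its p is no separate support. Where the tissues do not overlap, as also for SUCLA2 to SUCLG2, this p takes the same value whatever the size of the gap. CS to OGDH was 1.38 ± 0.21 in breast muscle and 0.725 ± 0.234 in liver (permutation adjusted p = 0.0003), with overlap: organic liver replicate 1 reached 1.25 and organic muscle replicate 2 was at 0.977.

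**Figure D3:**
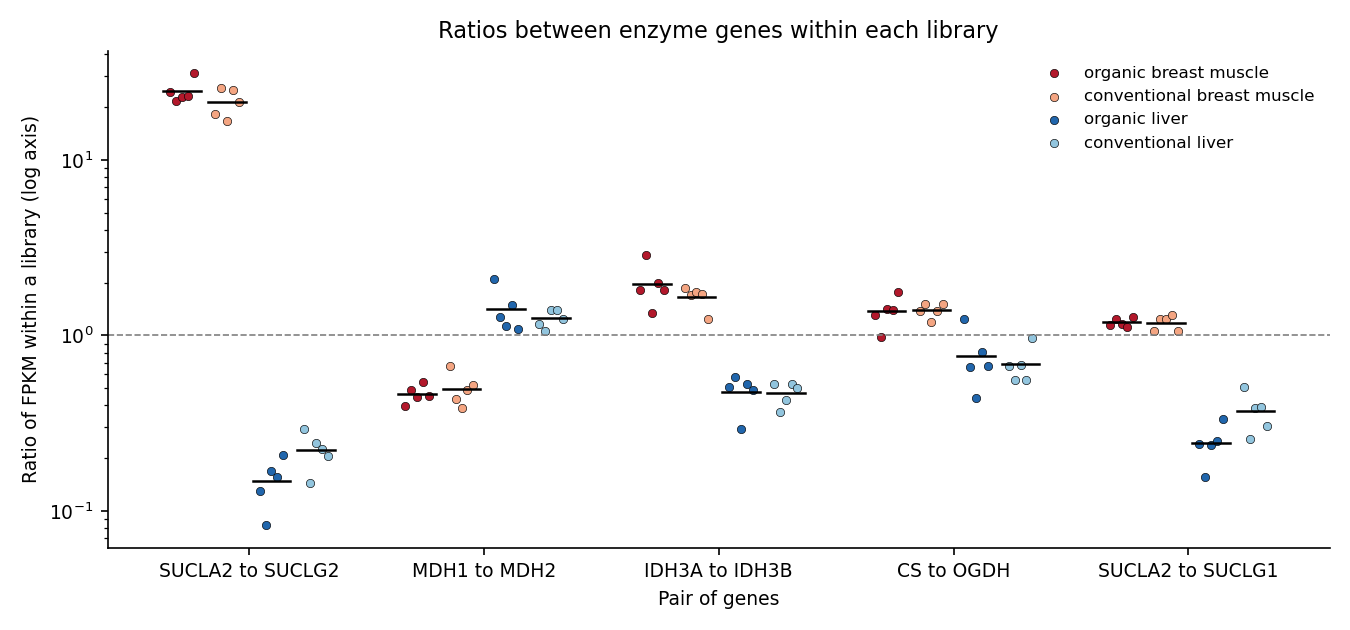
Ratio of FPKM between 2 genes within each library on a log axis for 5 pairs of genes, with 1 point per library, a bar at the mean of each group of 5 and a dashed line at equal levels. The SUCLA2 to SUCLG2 ratio lies between 16.7 and 31.1 in breast muscle and between 0.0831 and 0.295 in liver.

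Calls in a wider list of cycle genes, which also holds cytosolic enzymes and assembly factors, went in both directions. Over all genes tested, 39.1% were called higher in breast muscle and 42.5% lower. Of 18 other cycle genes listed, 15 were matched by name and 14 tested; 8 were higher in breast muscle, 4 were lower and 2 did not pass (median log2 fold change 0.40). The higher ones included the succinate dehydrogenase assembly factor SDHAF3 at 0.97 ± 0.16 and the succinate dehydrogenase subunits SDHC at 0.88 ± 0.09 and SDHA at 0.85 ± 0.10. Set beside the 9 enzymes, these 3 log2 values lay above MDH2 at 0.81, FH at -0.12 and MDH1 at -0.67. They lay below the other 6 enzymes, among them OGDH at 1.75. The lower ones were ACO1, a cytosolic enzyme and iron regulator, at -5.19 ± 0.17, IDH1, the cytosolic NADP-dependent isocitrate dehydrogenase, at -3.56 ± 0.17, SUCLG2, and DLST. ACO1 averaged 3.94 ± 0.974 FPKM in breast muscle and 142 ± 28.5 FPKM in liver, and IDH1 16.5 ± 1.61 FPKM in breast muscle and 193 ± 59.8 FPKM in liver (SD, n = 10 each). IDH2, the mitochondrial NADP-dependent enzyme, was at -0.15 ± 0.09 and did not pass. As given above, the call of DLST was lost without organic liver replicate 2.

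Genes that feed pyruvate into the cycle differed in both directions. Of 14 listed, 13 were matched by name and tested. Of these, 5 were higher and 7 lower in breast muscle (median log2 fold change -0.52), beside 39.1% and 42.5% of all genes. Higher were the pyruvate dehydrogenase phosphatase PDP1 at 4.57 ± 0.26 and the kinases that switch the complex off, PDK2 at 2.23 ± 0.19, PDK4 at 2.005 ± 0.25 and PDK3 at 1.45 ± 0.21. Lower were the phosphatase regulator PDPR at -1.82 ± 0.16, the pyruvate carrier subunit MPC2 at -1.64 ± 0.12, the E1 beta subunit PDHB at -1.35 ± 0.13 and the phosphatase PDP2 at -1.33 ± 0.13. PDP1 averaged 77.2 ± 41.6 FPKM in breast muscle and 3.03 ± 0.84 FPKM in liver (SD, n = 10 each).

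Reactions that fill or drain the cycle went in both directions. Of 20 genes listed, 13 were matched by name and tested. PC, PCK2, ME2, GLUD1, GLS2, BDH1 and MMUT were not matched, so their reactions are missing here. Of the 13 genes, 5 were higher and 6 lower in breast muscle, near the 39.1% and 42.5% of all genes. Among the higher ones were the mitochondrial malic enzyme ME3 at 4.76 ± 0.18, the ketone body enzyme OXCT1 at 3.99 ± 0.13 and the mitochondrial aspartate aminotransferase GOT2 at 1.16 ± 0.10. Lower were PCK1, a cytosolic enzyme of gluconeogenesis, at -9.19 ± 1.45, and the alanine aminotransferase GPT2 at -5.28 ± 0.48. ATP-citrate lyase ACLY at -5.18 ± 0.15 and the methylmalonyl-CoA epimerase MCEE at -1.78 ± 0.23 were lower too. PCK1 was at 0 reads in 7 of 10 muscle libraries and varied from 0.322 to 151.8 FPKM between livers, so its fold change is imprecise. Among 7 carriers of malate, aspartate, citrate and related acids, 2 were higher and 5 lower in breast muscle. The aspartate-glutamate carriers of the malate-aspartate shuttle differed in opposite directions: SLC25A12 averaged 91.0 ± 13.7 FPKM in breast muscle and 3.04 ± 0.696 FPKM in liver (4.89 ± 0.14 on the log2 scale), and SLC25A13 3.37 ± 0.645 FPKM in breast muscle and 48.9 ± 7.03 FPKM in liver (-3.88 ± 0.11; SD, n = 10 each). The oxoglutarate carrier SLC25A11 was at 1.81 ± 0.11. Lower were also the citrate carrier SLC25A1 at -6.06 ± 0.16, the oxodicarboxylate carrier SLC25A21 at -5.13 ± 0.32 and the dicarboxylate carrier SLC25A10 at -4.28 ± 0.14.

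Other mitochondrial genes are set beside the 9 enzymes as a description. Of 22 nuclear genes of the respiratory chain listed, 17 were matched by name and tested. Of these 17, 9 were higher and 2 lower in breast muscle, and the median log2 fold change of the 17 was 0.23. The highest were cytochrome c (CYCS) at 1.01 ± 0.16, the complex III subunit UQCRFS1 at 0.68 ± 0.10, COX6C at 0.59 ± 0.14 and NDUFS1 at 0.55 ± 0.10; COX7A2 at -2.61 ± 0.23 and NDUFB8 at -0.25 ± 0.09 were lower. Of 13 genes of the mitochondrial genome, 12 were lower in breast muscle and 0 higher, with a median of -0.80, from ND6 at -2.28 ± 0.14, ND1 at -1.22 ± 0.15, COII at -1.04 ± 0.15 and COX1 at -0.99 ± 0.15 to ATP8 at 0.25 ± 0.16, which did not pass. No test was made of these lists against the enzymes. Over all genes 39.1% were called higher in breast muscle and 42.5% lower. Of 13 regulators of mitochondrial biogenesis listed, 11 were matched by name and tested, without PPARGC1B and ESRRA. Among the 11, 4 transcription factors were higher: NRF1 at 2.47 ± 0.15, PPARD at 1.90 ± 0.18, YY1 at 0.65 ± 0.09 and GABPA at 0.50 ± 0.08. Another 5 were lower, led by the nuclear receptor PPARA at -2.84 ± 0.18 and the mitochondrial DNA polymerase POLG at -1.41 ± 0.10. ESRRG at -0.77 ± 0.17 and the mitochondrial transcription factor TFAM at -0.72 ± 0.11 came next.

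**Figure D4:**
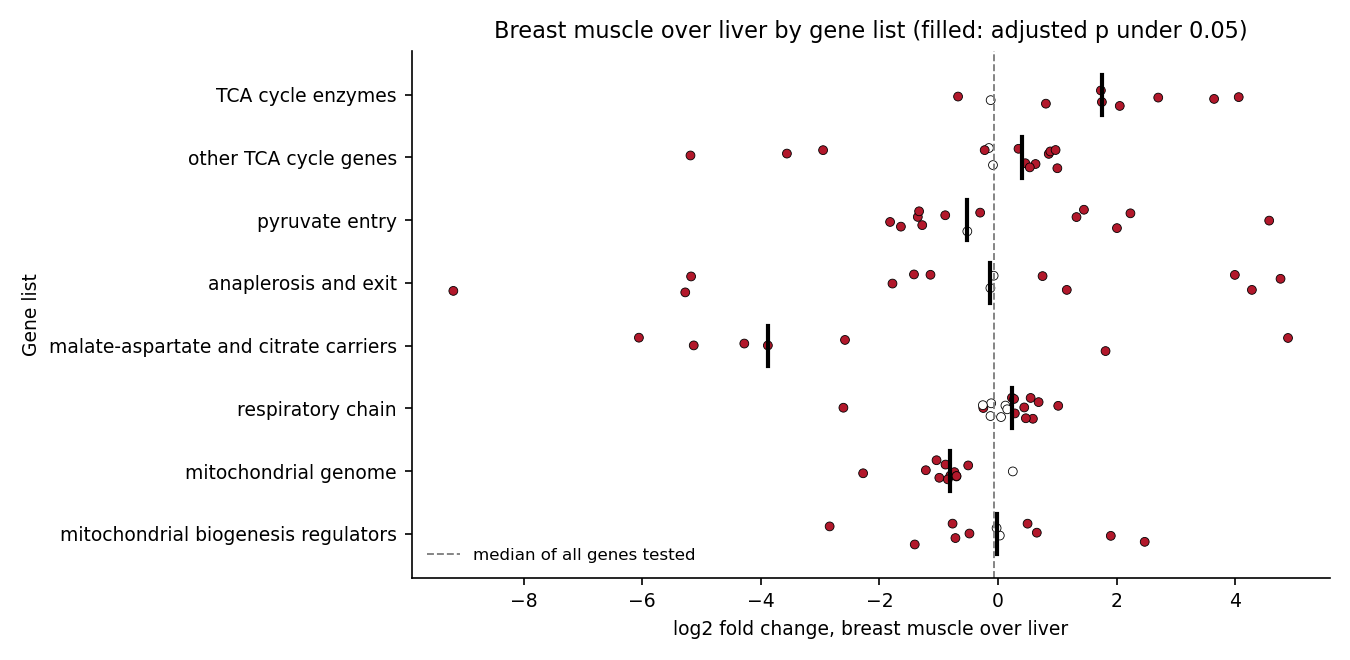
Log2 fold change of breast muscle over liver for each gene of 8 lists, with 1 point per gene, filled where the edgeR adjusted p was under 0.05, a black bar at the median of each list and a dashed line at the median of all genes tested, -0.07. The bar of the 9 TCA cycle enzymes lies at 1.75, that of the respiratory chain at 0.23 and that of the mitochondrial genome at -0.80.

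Markers of other cell types also differed between the tissues, and their part in these differences was not tested. Beside the fibre and hepatocyte markers, the 8 fibroblast markers summed to 4226 to 16097 CPM in breast muscle and 279 to 649 CPM in liver. The 7 matched macrophage markers of 8 listed summed to 37.0 to 133 CPM in breast muscle and 766 to 1572 CPM in liver. The 10 slow-twitch fibre markers, which include genes shared with other cells, summed to 5412 to 7359 CPM in breast muscle and 221 to 340 CPM in liver. Of the 6 slow-twitch markers tested, 4 were called higher in breast muscle and 2 lower. Of the 7 T cell markers tested, 7 were called lower in breast muscle, of 7 endothelial markers 4 were lower and 1 higher, of 5 erythrocyte markers tested 4 were lower, and of 6 adipocyte markers 3 were lower and 2 higher. Over all genes 42.5% were called lower and 39.1% higher.

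Over all 20 libraries, the genes whose centred log2 CPM lay closest to the mean of the 9 enzymes were VDAC2, a pore of the outer mitochondrial membrane (root mean square difference 0.131), RNF7 (0.144), the proteasome ATPase PSMC5 (0.146), the conjugating enzyme UBE2M (0.15) and MOB4 (0.151), out of 11179 genes with a symbol. VDAC2 averaged 316 ± 43.9 FPKM in breast muscle and 99.5 ± 12.6 FPKM in liver (SD, n = 10 each), a log2 fold change of 1.65 ± 0.10. Since these genes were picked by closeness over libraries of both tissues, a fold change near the enzymes' mean follows from the choice. Among the 9 enzymes, IDH3B (0.155), OGDH (0.173) and SUCLG1 (0.174) lay closest to their common mean, and MDH1 (1.24) and SUCLA2 (1.18) farthest from it.

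The raising system was compared within each tissue, and 0 of the 9 genes passed in either tissue. In breast muscle their log2 fold changes, organic over conventional, lay between -0.11 for IDH3B and 0.16 for FH, with 8 of 9 above 0 and a median of 0.11. In liver they lay between -0.52 for SUCLA2 and 0.50 for MDH1, with 6 of 9 above 0 and a median of 0.10. Over all genes tested, 5999 of 12496 lay above 0 in breast muscle and 6289 of 13186 in liver. With total-count scaling CS, OGDH and MDH1 fell below 0 in breast muscle, and IDH3A did in liver. No gene of the whole table passed with edgeR, so percent called was 0.0 in both tissues (12496 genes tested in breast muscle and 13186 in liver). Without adjustment, 934 genes (7.47%) in breast muscle and 997 (7.56%) in liver had p under 0.05, and DESeq2 called 15 genes in breast muscle and 31 in liver, none of the 9 among them. The organic and conventional libraries overlapped for all 9 genes in both tissues, while 1.23% of all genes did not overlap in breast muscle and 1.21% in liver.

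**Figure D5:**
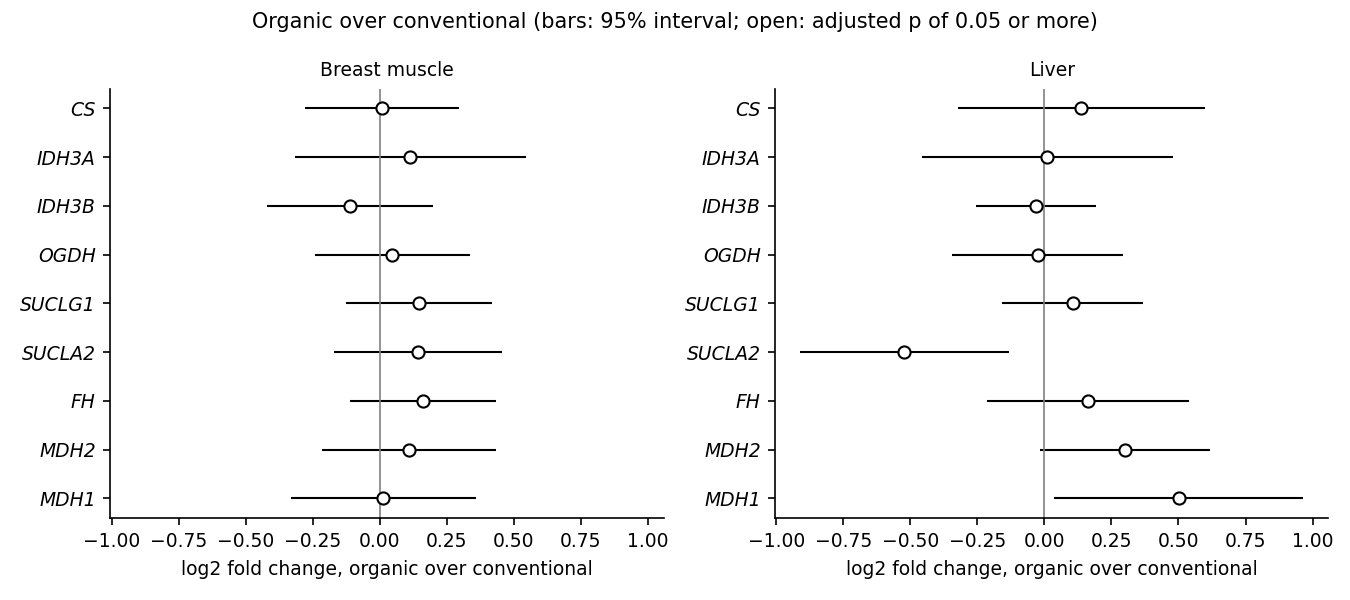
Log2 fold change of organic over conventional birds with its 95% interval for the 9 enzyme genes in breast muscle (left) and liver (right); every point is open because no edgeR adjusted p was under 0.05. In breast muscle all 9 intervals include 0, and in liver those of SUCLA2 at -0.52 and MDH1 at 0.50 do not.

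In breast muscle the 95% intervals of the 9 genes all included 0 and reached from -0.42 for IDH3B to 0.54 for IDH3A. Group means were 113 ± 18.6 FPKM in organic and 110.2 ± 8.73 FPKM in conventional breast muscle for CS (0.01 ± 0.13 on the log2 scale), and 83.7 ± 13.7 FPKM in organic and 79.4 ± 2.46 FPKM in conventional breast muscle for OGDH (0.05 ± 0.13; SD, n = 5 each). The succinyl-CoA ligase subunits were at 0.14 ± 0.15 for SUCLA2 and 0.15 ± 0.13 for SUCLG1, each with 4 of 5 organic libraries above the conventional mean. FH was at 0.16 ± 0.13, MDH2 at 0.11 ± 0.15, MDH1 at 0.01 ± 0.16, IDH3A at 0.11 ± 0.20 and IDH3B at -0.11 ± 0.14. The edgeR adjusted p-values of the 9 genes ran from 0.775 to 0.993. With 1 library left out, values ran from 0.05 to 0.22 for FH, 0.02 to 0.25 for IDH3A, 0.01 to 0.19 for MDH2, -0.23 to -0.04 for IDH3B, 0.09 to 0.22 for SUCLA2 and 0.09 to 0.21 for SUCLG1. The lowest values of FH, MDH2, SUCLG1 and IDH3B came without organic replicate 1. That of IDH3A came without conventional replicate 5, while the highest values of IDH3A and MDH2 came without organic replicate 3 and that of IDH3B without organic replicate 2.

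In liver SUCLA2 had the largest value downward. All 5 organic livers, at 3.30 to 4.80 FPKM, lay below the conventional mean of 5.99 FPKM, while the conventional livers ranged from 4.28 to 8.10 FPKM. SUCLA2 averaged 4.19 ± 0.601 FPKM in organic liver and 5.99 ± 1.496 FPKM in conventional liver (SD, n = 5 each), a log2 fold change of -0.52 ± 0.18 with a 95% interval of -0.91 to -0.13, an unadjusted p of 0.0125 and an edgeR adjusted p of 0.625. With 1 library left out it stood between -0.62 and -0.39. SUCLG2, its counterpart, was at 0.13 ± 0.17, with 29.9 ± 7.82 FPKM in organic liver and 27.0 ± 3.27 FPKM in conventional liver. The SUCLA2 to SUCLG1 ratio averaged 0.245 ± 0.0641 in organic liver and 0.371 ± 0.0971 in conventional liver (difference in log2 ratio -0.60; two-sided exact permutation test, p = 0.0476, adjusted p = 0.119 over 15 tests). Without organic replicate 5 that difference was -0.73 with an exact permutation adjusted p of 0.0397. That library, at 0.337, was the only organic liver within the conventional range of 0.258 to 0.512, so leaving it out removed all overlap. The SUCLA2 to SUCLG2 ratio averaged 0.149 ± 0.0462 in organic liver and 0.223 ± 0.055 in conventional liver (-0.61; exact permutation test, p = 0.0635, adjusted p = 0.136). With 5 libraries against 5, the smallest p this exact test can give is 0.00794, and it is larger with a library left out.

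MDH1 had the largest value upward in liver. Organic livers had 249, 169.5, 122, 119 and 105 FPKM and conventional livers 110.4, 99.4, 102, 125 and 96.3 FPKM. Organic replicate 1 stood highest, and the groups overlapped. Organic replicate 5 lay just below the conventional mean in FPKM and above it in CPM scaled as in the edgeR test. The log2 fold change was 0.50 ± 0.21 with a 95% interval of 0.03 to 0.97 (unadjusted p = 0.0373, edgeR adjusted p = 0.653), and 0.26 without organic replicate 1. That library was also the highest of the 10 livers for CS, at 26.7 FPKM, and for ME1, the cytosolic malic enzyme, at 261 FPKM against 8.99 to 94.8 FPKM, and ACLY at 237 FPKM against 72.2 to 175 FPKM. MDH2 was at 0.30 ± 0.15 (edgeR adjusted p = 0.653), with 4 of 5 organic libraries above the conventional mean. FH was at 0.16 ± 0.17, CS at 0.14 ± 0.21, SUCLG1 at 0.10 ± 0.12, IDH3A at 0.01 ± 0.22, OGDH at -0.03 ± 0.15 and IDH3B at -0.03 ± 0.10, and their intervals all included 0. Without organic replicate 1, CS was at -0.04, on the other side of 0.

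The difference between the tissues in the raising effect was tested with an interaction term, breast muscle minus liver. Of the 9 genes 0 passed, as did 0.0% of 14447 genes, and 5.34% of all genes had an unadjusted p under 0.05. SUCLA2 had the largest value, 0.66 ± 0.23 with a 95% interval of 0.18 to 1.14 (unadjusted p = 0.00964, edgeR adjusted p = 0.896). MDH1 followed at -0.50 ± 0.28 (edgeR adjusted p = 0.942), was at -0.25 without organic liver replicate 1, and stood between -0.60 and -0.25 over the libraries left out. The other 7 genes lay between -0.20 and 0.10. The raising effects in the 2 tissues share no library, but they may share birds.

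The other genes of the pathway did not pass in either raising comparison with edgeR either. Values for the 2 genes of each list with the smallest p are given as measured. In liver ACLY, which cuts exported citrate for fat synthesis, was at 0.95 ± 0.18 (edgeR adjusted p = 0.493), and ME1 at 2.38 ± 0.85. For ACLY all 5 organic livers lay above all 5 conventional livers, and 1.21% of all genes tested had no overlap of the groups. Without organic replicate 1, ME1 was at 1.35. The phosphatase regulator PDPR was at -0.55 ± 0.16 and the kinase PDK2 at -0.34 ± 0.15. Of the other cycle genes SDHB was at 0.25 ± 0.14 and MRPS36 at 0.31 ± 0.20. SDHB was at 0.14 without organic replicate 1 and MRPS36 at 0.13 without organic replicate 2. The carriers SLC25A22 and SLC25A12 had -0.23 ± 0.13 for SLC25A22 and -0.31 ± 0.21 for SLC25A12, and SLC25A22 was at -0.15 without conventional replicate 5. The coactivator PPARGC1A was at -0.74 ± 0.31 and the mitochondrial helicase TWNK at 0.40 ± 0.18, or 0.26 without organic replicate 1. Respiratory chain genes lay above 0 for 16 of 17, with a median of 0.18, and mitochondrial genome genes for 13 of 13, with a median of 0.23. Over all genes 6289 of 13186 lay above 0, with a median of -0.01. The genes of a list share libraries, so these counts are a description with no test. UQCRFS1 was at 0.28 ± 0.13, ATP5MC1 at 0.32 ± 0.15, ATP8 at 0.37 ± 0.24 and COII at 0.33 ± 0.23. Without organic replicate 2, ATP5MC1 was at 0.20. Organic liver replicate 4, with the largest mitochondrial share, moved with the mitochondrial genome values, and without it COII was at 0.16 and ATP8 at 0.24. Its part was not tested. Fibroblast markers summed to 279 to 405 CPM in organic liver and 406 to 649 CPM in conventional liver, with 0 of 7 tested above 0, a median log2 fold change of -0.53 and 0 called. Their part in the liver values was not tested.

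In breast muscle the phosphatases PDP1 and PDP2, which switch pyruvate dehydrogenase on, had 0.95 ± 0.37 for PDP1 and 0.42 ± 0.17 for PDP2. Of the genes that fill the cycle, ME1 was at 0.36 ± 0.15 and ADSL at 0.23 ± 0.13. Of the other cycle genes, MRPS36 was at 0.18 ± 0.14 and IDH2 at 0.17 ± 0.13. Without conventional replicate 3, MRPS36 was at 0.10 and IDH2 at 0.09, and without organic replicate 1 IDH2 was at 0.10. Of the carriers, SLC25A13 was at -0.38 ± 0.15 and SLC25A1 at -0.28 ± 0.20. SLC25A1 was at -0.18 without organic replicate 1 and at -0.45 without organic replicate 5. Respiratory genes were represented by COX7A2 at -0.51 ± 0.40, NDUFA9 at 0.14 ± 0.12, and the mitochondrially encoded ND6 at -0.36 ± 0.16 and ND2 at 0.57 ± 0.26, and the regulators by POLG at -0.30 ± 0.15 and PPARGC1A at 0.31 ± 0.22. Without conventional replicate 1, COX7A2 was at -0.25 and NDUFA9 at 0.10. COX7A2 was at -0.33 without conventional replicate 5, and PPARGC1A at 0.18 without organic replicate 5. The median over 14 other cycle genes was 0.01, beside -0.01 over all genes. For PDP1 the organic libraries had 124, 91.4, 80.2, 153.8 and 62.2 FPKM and the conventional ones 23.2, 49.6, 42.4, 106 and 39.5 FPKM, and conventional replicate 4 lay above 3 organic libraries. Of 6 slow-twitch fibre markers tested, from a list that includes genes shared with other cells, 1 was above 0. Their median log2 fold change was -1.505, while the 10 matched markers summed to 5537 to 7359 CPM in organic and 5412 to 7331 CPM in conventional breast muscle. Over all genes tested, 5999 of 12496 lay above 0. The erythrocyte markers summed to 60.3 to 429 CPM in organic and 67.6 to 103 CPM in conventional breast muscle, with 4 of 4 above 0 and a median of 0.76. None of these markers was called, and their part in the values of the 9 enzymes was not tested.

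The spread between libraries was the wider in the organic group for most of the 9 genes. On TMM-scaled CPM, the coefficient of variation was higher in organic than in conventional libraries for 8 of 9 genes in breast muscle, with medians of 17.0% in organic and 9.17% in conventional libraries, and for 8 of 9 genes in liver, with medians of 17.6% in organic and 10.99% in conventional libraries. The exception in both tissues was SUCLA2, at 12.9% in organic and 16.5% in conventional breast muscle and at 15.2% in organic and 23.6% in conventional liver. Over all genes tested the organic spread was the higher for 49.2% in breast muscle and 64.7% in liver. The 9 genes share libraries, so these counts are a description with no test, made after the values were seen. In breast muscle organic replicate 1 was the highest library for 8 of 9 genes by FPKM and by TMM-scaled CPM, and for 1 of 9 by CPM of total counts. Its scaling factor over its own total was the lowest of the 20 libraries, 0.824. Organic replicate 3 was the lowest for 4 genes. In liver organic replicate 2 was the highest for 6 of 9 genes by FPKM, and for 1 of 9 by CPM of total counts.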

How the data were processed

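Read counts and FPKM values per gene for 20 libraries were deposited by the authors in 1 table. Per the submitters' processing notes, GRCg6a, HISAT2 2.0.5 and DESeq2 1.20.0 were used, with no role stated; no source used here gives the counting tool or whether it used strand. The deposited FPKM equal the count over gene length, scaled per library by a factor that follows median-of-ratios size factors, 0.824 to 1.19 times the library's own total, so FPKM differ between libraries from values scaled by totals. Counts were tested with edgeR 4.0.16 in R 4.3.3 (TMM scaling, filterByExpr with a minimum count of 10, robust quasi-likelihood fit, two-sided F-test), with Benjamini-Hochberg adjustment over all genes tested and a threshold of 0.05. The raising comparisons used the 10 libraries of a tissue, and the tissue and interaction comparisons all 20 with 4 group means. The SE of a log2 fold change is its size over the square root of F. Ratios of FPKM within a library were tested by an exact permutation test (5 against 5) or 100000 resamples (10 against 10), adjusted over 15 tests. The scripts were tested on simulated data. The 9 genes, the lists and the ratios were chosen with earlier results of these data known. From each list the up to 4 largest called changes in each direction are named, or the 2 genes with the smallest p where none was called (some such genes are not reported here), and the 5 genes closest to the enzymes' mean pattern. Summaries of spread and of summed beta subunits were added after the values were seen. Gene names came from the table, and for 720 genes from RefSeq. Alternatives were median-of-ratios, total-count and upper-quartile scaling, no low-count filter, DESeq2 1.42.0, limma 3.58.1 on log2(FPKM + 1) and log2(FPKM + 0.1), a replicate block, all 20 libraries in a raising fit, ratios of raw counts, and leaving out each library in turn.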

Additional observations from a re-analysis of the deposited data

Results flagged for a closer look

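In 2 of 56 sets of 5 libraries, 1 library stood farther from the other 4 than Dixon's criterion allows, and chance flags about 1 set in 20. For FH in organic breast muscle, replicate 1 had 124 FPKM and the others 78.5 to 90.2 FPKM, a gap of 0.741 of the whole range against a critical value of 0.71. For the ratio of SUCLA2 to SUCLG2 in organic breast muscle, replicate 5 had 31.1 and the others 21.7 to 24.4, a gap of 0.717 of the range.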

How the results depend on the processing

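The calls of the 9 genes held under every alternative run, with 1 exception: FH in breast muscle over liver was -0.25 (edgeR adjusted p = 0.018) with total-count scaling. DESeq2 called 31 genes in the liver raising comparison and 15 in the breast muscle one, where edgeR called 0, and edgeR called 0 to 1 muscle genes with a library left out (1 without conventional replicate 4). The cause was not tested. Values near 0 changed sign without a call. Organic over conventional, IDH3A in liver was -0.0576 with total-count scaling, -0.0345 with the replicate block, -0.0113 with limma on log2(FPKM + 1) and -0.0183 on log2(FPKM + 0.1). CS in breast muscle was -0.0704 with total-count scaling, -0.0228 with upper-quartile scaling and -0.0016 with the replicate block. MDH1 in breast muscle was -0.0652 with total-count and -0.0157 with upper-quartile scaling, and OGDH -0.0266 with total-count scaling. The interaction of FH was 0.0097 with median-of-ratios scaling, 0.0025 with total counts, 0.0087 with the replicate block, 0.0103 with DESeq2, and 0.0272 and 0.0278 with limma at a pseudocount of 1 and 0.1. With 1 library left out, liver values ran from -0.0429 to 0.281 for CS, -0.137 to 0.162 for IDH3A, -0.0896 to 0.0097 for IDH3B and -0.13 to 0.0364 for OGDH. Breast muscle values ran from -0.0517 to 0.074 for CS, -0.0252 to 0.104 for OGDH and -0.0652 to 0.114 for MDH1. Interactions ran from -0.279 to 0.0508 for CS, -0.0500 to 0.258 for IDH3A, -0.0161 to 0.18 for OGDH, -0.0444 to 0.102 for SUCLG1 and -0.126 to 0.0996 for FH. Log2 ratio differences in liver ran from -0.00599 to 0.23 for MDH1 to MDH2, -0.0837 to 0.173 for IDH3A to IDH3B, -0.0951 to 0.282 for CS to OGDH and -0.727 to -0.45 for SUCLA2 to SUCLG1, the lowest without organic replicate 5 and past the threshold there (exact permutation adjusted p = 0.0397). In breast muscle they ran from -0.172 to 0.0264 for MDH1 to MDH2, -0.135 to 0.0812 for CS to OGDH and -0.0324 to 0.0442 for SUCLA2 to SUCLG1. Replicate numbers were not used to pair libraries in the main fits or in the ratio tests between tissues. Correlations of same-numbered libraries ran from 0.0802 to 0.211 for organic breast muscle and organic liver (5 of 5 best with their own number). For conventional breast muscle and conventional liver they ran from 0.0193 to 0.189 (3 of 5 best with their own number). Between systems they ran from -0.195 to 0.126 in breast muscle and from -0.199 to 0.17 in liver (1 of 5 in each). Whether same-numbered muscle and liver libraries share a bird is not in the labels and was not tested. The replicate block called 11831 genes between tissues, 8 of the 9 among them, and changed no call of the 9.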
